A study of Mus musculus with 9 samples.

Results

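The replicative DNA polymerases and the primase that starts their strands were followed in cultured prostate epithelial cells of the mouse, in an Rb-/- and a wild-type line. The members were Pola1, Pola2, Pold1, Pold2, Pole, Pole2, Prim1 and Prim2, and every probe set that the platform annotation gives to one of these symbols was taken, whatever its values. This gave 9 of the 12422 probe sets on the array, for 7 of the 8 genes. Pole was not measured here. Of the 9 probe sets, 8 passed the filter on low values and were tested, at least 1 for each of the 7 genes. Total RNA was measured in 4 groups: the Rb-/- line kept for 48 hours without fetal bovine serum (2 arrays), the Rb-/- line in medium with 5% serum (2 arrays), the wild-type line without serum for 48 hours (2 arrays) and the wild-type line in 5% serum (3 arrays). The medium was RPMI-1640 throughout. Each genotype is represented by 1 line, so genotype cannot be told apart from other differences between the lines. Nothing in the labels ties the arrays of a group to separate cultures, and the p-values measure only the spread between arrays, which may be technical.

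DNA polymerases cannot start a strand on their own. The primase, made of the catalytic subunit Prim1 and the large subunit Prim2, lays down a short RNA, and DNA polymerase alpha, with the catalytic subunit Pola1 and the accessory subunit Pola2, extends it to form the primer. DNA polymerase delta (Pold1, catalytic, and Pold2, accessory) then builds mainly the lagging strand, and DNA polymerase epsilon (Pole, catalytic, and Pole2, accessory) mainly the leading strand. Rb1 encodes the retinoblastoma protein, which binds E2F transcription factors and holds back genes of the S phase until a cell commits to divide. Serum supplies the growth factors that normal epithelial cells need for that step.

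Promoter windows are shown for the members whose window holds an E2F-type word, since the lines differ in Rb1. Each window runs from 250 bases before to 50 bases after the annotated start, on the strand of the gene, from RefSeq on the build GRCm38.p6. The table held windows for 6 members, and Prim2 and Pole had no entry. Both strands were searched for 4 words. The first was TTCCCGC, whose reverse complement reads GCGGGAA. The second was TTGGCGC, with the reverse complement reading GCGCCAA. The third was TTCGCGC and the fourth was TTGCCGC, each with its reverse complement. Capitals mark the matches, and no matches overlapped.
Prim1, chr10:128014965-128015264, plus strand: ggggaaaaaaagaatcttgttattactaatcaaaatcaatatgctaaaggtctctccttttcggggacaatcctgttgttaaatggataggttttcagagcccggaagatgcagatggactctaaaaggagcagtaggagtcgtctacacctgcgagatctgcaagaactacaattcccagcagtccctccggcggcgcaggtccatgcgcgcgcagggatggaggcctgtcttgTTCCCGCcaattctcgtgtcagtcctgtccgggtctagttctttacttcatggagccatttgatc
Pola1, chrX:93632106-93632405, minus strand: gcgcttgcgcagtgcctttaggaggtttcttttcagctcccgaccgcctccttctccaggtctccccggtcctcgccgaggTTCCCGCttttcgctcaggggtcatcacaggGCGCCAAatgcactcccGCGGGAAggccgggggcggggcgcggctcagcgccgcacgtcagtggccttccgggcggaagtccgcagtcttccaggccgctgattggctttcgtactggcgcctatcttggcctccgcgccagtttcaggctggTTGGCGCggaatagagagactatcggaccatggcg
Pole2, chr12:69228141-69228440, minus strand: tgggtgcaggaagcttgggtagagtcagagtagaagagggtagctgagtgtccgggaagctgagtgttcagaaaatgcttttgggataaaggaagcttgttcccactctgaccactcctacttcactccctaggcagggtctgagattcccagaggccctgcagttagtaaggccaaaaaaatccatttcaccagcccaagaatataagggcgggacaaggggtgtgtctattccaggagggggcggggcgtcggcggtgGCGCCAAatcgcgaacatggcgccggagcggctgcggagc
Pold1, chr7:44548766-44549065, minus strand: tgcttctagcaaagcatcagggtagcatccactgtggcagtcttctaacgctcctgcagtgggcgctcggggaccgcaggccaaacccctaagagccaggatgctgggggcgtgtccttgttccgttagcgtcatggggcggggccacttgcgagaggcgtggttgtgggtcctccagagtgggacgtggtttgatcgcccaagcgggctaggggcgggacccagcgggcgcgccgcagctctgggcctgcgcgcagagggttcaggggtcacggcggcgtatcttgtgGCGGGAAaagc

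The Prim1 word began 15 bases before the start. The Pola1 window held 4 words, beginning 169, 138 and 121 bases before the start and at base 16 after it. The Pole2 word began at base 11 and the Pold1 word at base 40 after the start. The Pola2 window and both Pold2 windows held none of these 4 words on either strand. Only exact matches were searched, so close variants of the words were not counted. Of all 32851 windows in the table, 9.57% held at least 1 such word, and 5 windows held 4 or more. This share was not matched for base content. The Pola1 and Pold1 windows each held 65.7% G or C, Pole2 56.3% and Prim1 49.0%, against a median of 52.7% over all windows. A match describes letters in a window and is not evidence of binding.

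The series was checked before the members were read. Rb1, the targeted gene, had normalized intensities of 171 and 167 on the Rb-/- arrays without serum and 114 and 110 in serum, all under the floor of 197. The wild-type arrays read 386 and 370.4 without serum and 714, 398 and 368 in serum. A second Rb1 probe set lay below the floor on every array. All 10 epithelial markers lay above the floor on every array, with keratin 8 (Krt8) between 7821 and 10465. The lowest was Krt14, between 205 and 232, and Trp63 ran from 326 to 390. Vimentin (Vim), Acta2, Myh11, Tek and the leukocyte antigen Ptprc lay below the floor on every array. Of the marker lists for other cell types, 3 of 6 mesenchymal or smooth muscle, 2 of 4 endothelial and 2 of 3 measured leukocyte genes lay above the floor on every array, among them Col1a1, Kdr and Cd3e. Kdr ran from 565 to 815 and Cd3e from 743 to 994, both above Krt14 and Trp63. Summed over each list, the endothelial markers read 1295 to 1368 on the Rb-/- arrays without serum and 1413 to 1426 in serum, against 1570.2 to 1653 without serum and 1466 to 1795 in serum for wild type. The mesenchymal or smooth muscle markers summed to 2067 to 2189 on the Rb-/- arrays without serum and 2036 to 2132 in serum, against 2394 to 2458 without serum and 2091 to 2437 in serum for wild type. The leukocyte markers summed to 1309 to 1369 on the Rb-/- arrays without serum and 1248 to 1329 in serum, against 1478 to 1662 without serum and 1211 to 1639 in serum for wild type. Without serum all 3 sums were lower in the Rb-/- line, with no overlap. In serum the mesenchymal and leukocyte sums overlapped between the lines. Their part in the member results was not tested. The first wild-type serum array stood apart: its rank correlations with the other wild-type serum arrays were 0.986 and 0.983, against 0.997 between those 2. Values without it are given where leaving it out changed a call, and for the difference of Prim1 and Pola1 in serum. Without it more probe sets passed over the whole series. Calls between the lines in serum rose from 2287 to 4376. Calls for withdrawal in Rb-/- cells, a comparison without that array, rose from 1348 to 2280. A member call gained this way is therefore not particular to the members.

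The catalytic primase subunit Prim1 showed the widest differences among the members. Its normalized intensities were 867 and 815 on the Rb-/- arrays without serum and 1045 and 1129 in serum. The wild-type arrays read 216 and 252 without serum and 727, 534 and 592 in serum. Every Rb-/- array lay above every wild-type array, and Rb-/- cells without serum still read higher than wild-type cells in serum. Averaged over the media, Prim1 was 2.53-fold higher in the Rb-/- line (log2 1.34, SE 0.10, adjusted p = 1.21e-05). The log2 difference was 1.85 without serum (SE 0.15, adjusted p = 4.15e-05) and 0.83 in serum (SE 0.13, adjusted p = 0.0023). The first array was the highest of the wild-type serum group, and without it the serum difference was 0.95.

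Pola1, the catalytic subunit of polymerase alpha, followed the same order of groups. It read 792 and 695 on the Rb-/- arrays without serum and 937 and 898 in serum, against 233 and 239 without serum and 707, 525 and 501 in serum for wild type. The Rb-/- arrays without serum overlapped the wild-type serum group, where the first array reached 707. At matched medium the groups did not overlap. Averaged over the media Pola1 was 2.25-fold higher in the Rb-/- line (log2 1.17, SE 0.11, adjusted p = 3.88e-05). The difference was 1.65 without serum (SE 0.16, adjusted p = 0.000123) and 0.68 in serum (SE 0.14, adjusted p = 0.00796). Without the first wild-type serum array the serum difference was 0.84. The serum call was lost without either Rb-/- serum array (adjusted p = 0.0696 and 0.0581).

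**Figure D1:**
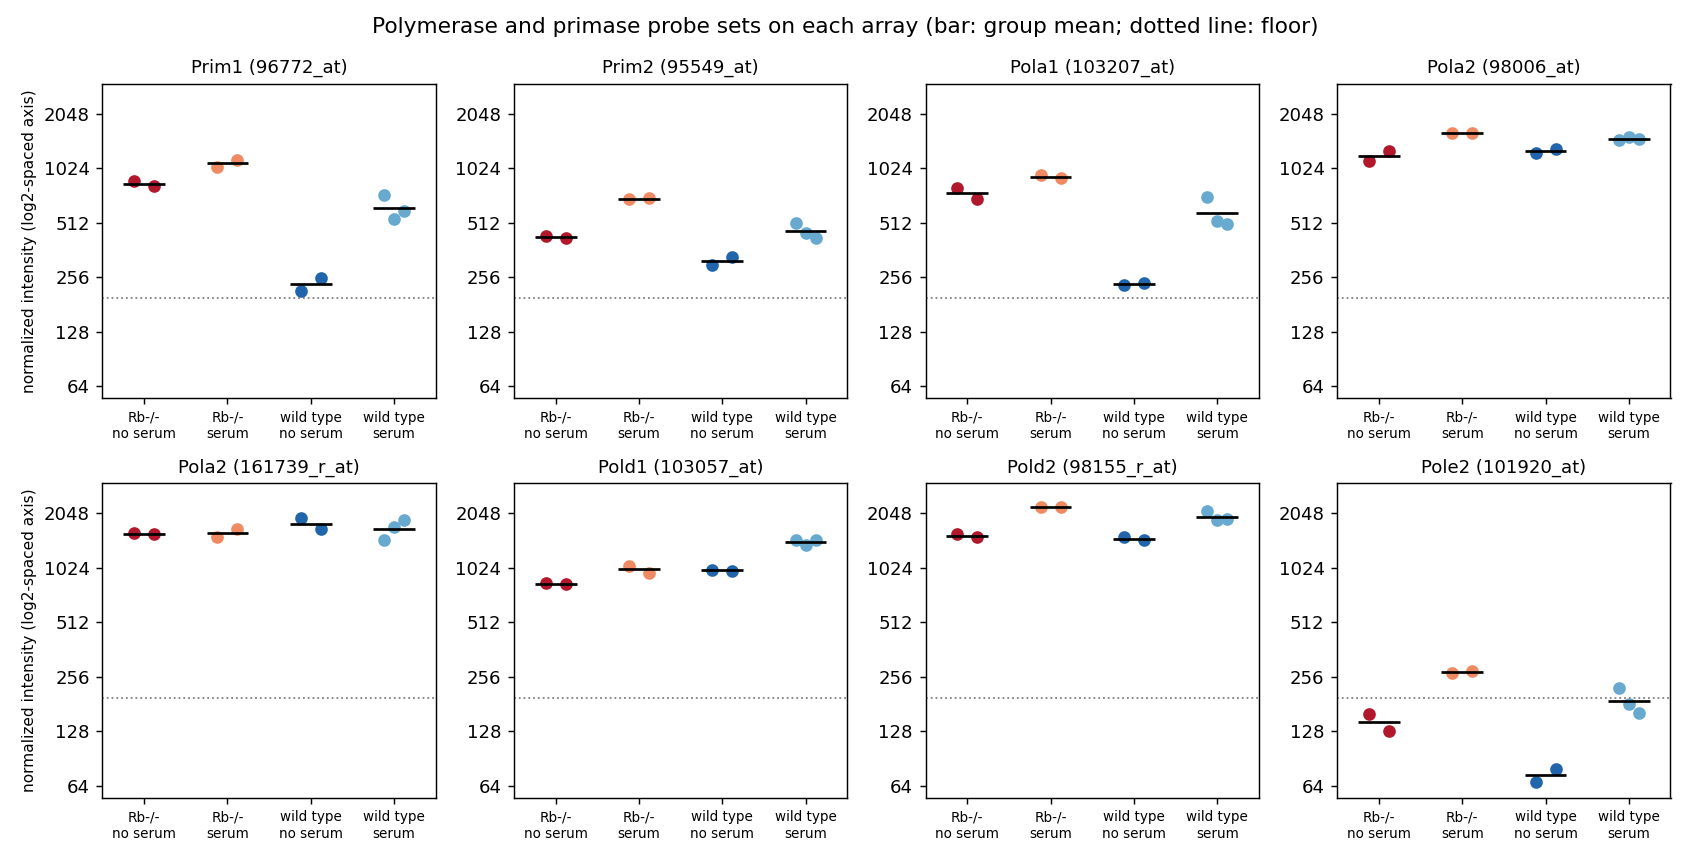
Normalized intensity of the 8 tested member probe sets on each of the 9 arrays, on a log2-spaced axis, with Rb-/- groups in red, wild-type groups in blue, a bar at each group mean and the floor of 197 as a dotted line. Prim1 and Pola1 were lowest in wild-type cells without serum, between 216 and 252, while all Rb-/- arrays read 695 or more.

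The large primase subunit Prim2 was also higher in the Rb-/- line, by 1.44-fold averaged over the media (log2 0.52, SE 0.07, adjusted p = 0.000462). Its intensities were 434 and 422 on the Rb-/- arrays without serum and 693 and 698 in serum, against 300.3 and 329 without serum and 510.4, 446 and 422 in serum for wild type. The groups separated within each medium, but Rb-/- cells without serum overlapped wild-type cells in serum. The difference was 0.44 without serum (SE 0.11, adjusted p = 0.0136) and 0.60 in serum (SE 0.10, adjusted p = 0.00218). The call without serum ended on leaving out the first wild-type serum-free array (adjusted p = 0.105) or the first Rb-/- serum-free array (adjusted p = 0.0764).

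Pola2, the accessory subunit of polymerase alpha, did not pass between the lines on either of its probe sets. The probe set with the suffix _at read 1125 and 1272 on the Rb-/- arrays without serum and 1609 and 1595 in serum, against 1239 and 1305 without serum and 1466, 1530.0 and 1480.3 in serum for wild type. Its averaged difference was 0.01, with a 95% interval from -0.12 to 0.14 (adjusted p = 0.921). In the values as deposited, without normalization, the same difference was 0.19 and passed (adjusted p = 0.033). The probe set with the suffix _r_at ranged from 1514 to 1679 in the Rb-/- line and from 1456 to 1927 in wild type, with an averaged difference of -0.13 (adjusted p = 0.254), and without the first wild-type serum array it passed at -0.18 (adjusted p = 0.0322). The 95% interval of that probe set ran from -0.32 to 0.067.

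Pold1, the catalytic subunit of polymerase delta, was lower in the Rb-/- line. It read 841 and 834 on the Rb-/- arrays without serum and 1043 and 964 in serum, against 1001 and 984 without serum and 1453, 1376 and 1453 in serum for wild type. The averaged difference was -0.38 (SE 0.06, adjusted p = 0.000699), and in the values as deposited it was -0.24 (adjusted p = 0.0141). In serum it was -0.51 (SE 0.07, adjusted p = 0.00143), with no overlap between the groups. The serum-free difference of -0.24 stood just past the threshold (SE 0.08, adjusted p = 0.0493) and was called under only 4 of the 16 alternative settings. It was -0.096 in the values as deposited (adjusted p = 0.473) and -0.13 after median scaling (adjusted p = 0.309). A second Pold1 probe set lay below the floor on every array and was not tested.

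Pold2, the accessory subunit of polymerase delta, read 1580.1 and 1508 on the Rb-/- arrays without serum and 2219 and 2225 in serum. The wild-type arrays read 1516 and 1455 without serum and 2110.1, 1886 and 1895 in serum. The averaged difference of 0.12 did not pass (95% interval from -0.0071 to 0.24, adjusted p = 0.111). It did pass in the values as deposited (0.32, adjusted p = 0.00592), with arrays scaled to a common median (0.29, adjusted p = 0.0107) and without the first wild-type serum array (0.14, adjusted p = 0.0133). Without that array the serum difference, 0.18 over all arrays (adjusted p = 0.117), was 0.23 and passed (adjusted p = 0.0107). The suffix _r marks a probe set designed under relaxed rules, which applies to Pold2 and to one probe set each of Pola2 and Pold1.

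Pole2, the accessory subunit of polymerase epsilon, lay near the floor. It read 160.4 and 129 on the Rb-/- arrays without serum and 267 and 276 in serum, against 67.1 and 79.3 without serum and 223, 182 and 163 in serum for wild type. Both serum-free groups and 2 of the 3 wild-type serum arrays were under the floor, where values have no order. In serum Pole2 was higher in the Rb-/- line at 0.41 (SE 0.06, adjusted p = 0.00203), a difference measured against the floor on those 2 arrays. Values set to the floor carry no spread, so at this floor the SE and adjusted p of Pole2 do not measure its full spread between arrays. Without serum no difference could be read at this floor. With a lower floor, at percentile 10 of all values, the serum-free difference was 0.62 (adjusted p = 0.0135), the serum difference 0.53 and the averaged one 0.58, against 0.20 at the main floor (SE 0.05, adjusted p = 0.00776). With the floor at percentile 40, Pole2 could not be tested.

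Across the tested member probe sets, 4 of 8 were higher and 1 lower in the Rb-/- line averaged over the media. Of all 9686 tested probe sets, 21.8% were called higher and 23.4% lower, so 45.2% passed in either direction. The Rb-/- arrays lay apart from the wild-type arrays for 1 of 8, Prim1, and for 23.1% of all probe sets. In serum 4 were higher and 1 lower, where 13.2% and 10.4% of all probe sets were called, 23.6% in either direction. The groups did not overlap for 7 of 8, against 49.5% of all. Without serum 3 were higher and 1 lower, where 16.8% and 13.9% were called, 30.7% in either direction. The groups did not overlap for 5 of 8, against 74.3% of all. The median log2 difference of the member probe sets was 0.16, against -0.05 over all tested probe sets. Pole2 was among those called higher averaged over the media and in serum, with most of its values set to the floor. The genotype contrasts share arrays with each other, and these counts describe the members without a test of the list.

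**Figure D2:**
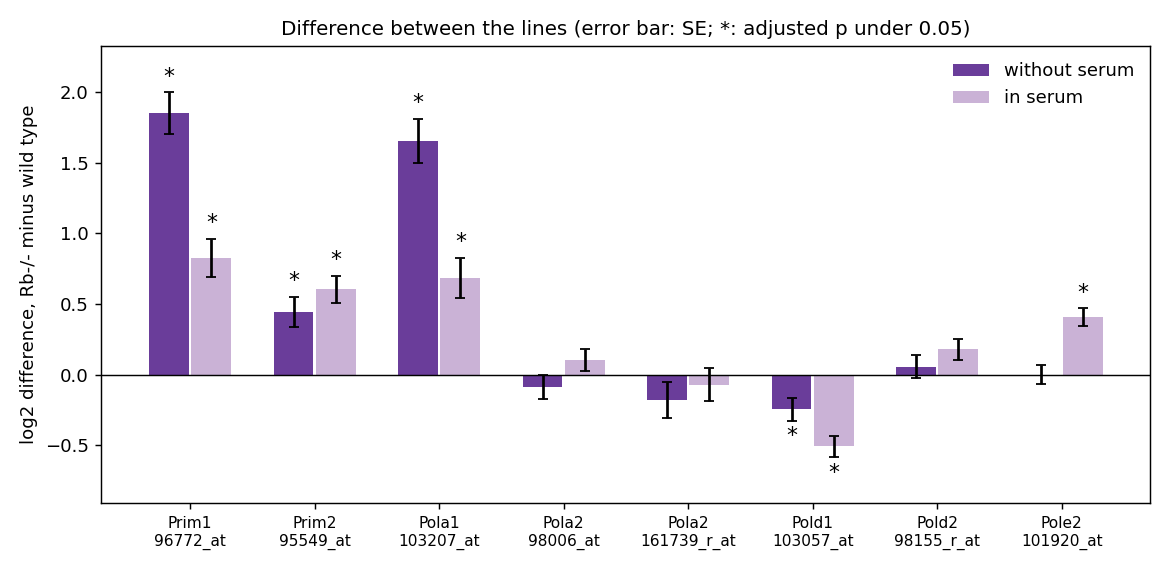
Log2 difference of the Rb-/- minus the wild-type line for each tested member probe set, without serum (dark) and in serum (pale), with SE as error bars and a star where the adjusted p was under 0.05. Prim1 stood at 1.85 and 0.83 and Pola1 at 1.65 and 0.68, while Pold1 stood at -0.24 and -0.51.

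Serum withdrawal was then compared within each line. Prim1 and Pola1 fell in wild-type cells without serum, with log2 changes of -1.40 (SE 0.13, adjusted p = 0.000141) and -1.28 (SE 0.14, adjusted p = 0.000335). These are 2.63-fold and 2.42-fold lower levels. Over single arrays left out, the wild-type change ran from -1.51 to -1.27 for Prim1 and from -1.38 to -1.12 for Pola1. In the Rb-/- line the same changes were -0.37 for Prim1 (95% interval from -0.70 to -0.04, adjusted p = 0.15) and -0.31 for Pola1 (95% interval from -0.66 to 0.04, adjusted p = 0.282), and neither passed. Without the first wild-type serum array, both passed in the Rb-/- line (adjusted p = 0.0214 and 0.0237) at nearly the same size, -0.37 and -0.30. Over all single arrays left out, these changes ran from -0.42 to -0.31 for Prim1 and from -0.40 to -0.21 for Pola1. Leaving out other arrays could also raise the adjusted p.

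The difference between the withdrawal responses was itself tested as an interaction, the change in Rb-/- cells minus the change in wild-type cells. It was 1.03 for Prim1 (SE 0.20, 95% interval from 0.58 to 1.47, adjusted p = 0.0524) and 0.97 for Pola1 (SE 0.21, 95% interval from 0.50 to 1.44, adjusted p = 0.0905), so neither passed over all 9686 probe sets. Leaving out the first wild-type serum array moved these values to 0.90 and 0.81, and both then passed (adjusted p = 0.0101 and 0.00796). Over all probe sets the interaction calls also rose without it, from 90 to 255. That array was the highest of its group for both genes. Over all single arrays left out, the interaction ran from 0.90 to 1.14 for Prim1 and from 0.81 to 1.07 for Pola1. Leaving out other arrays could also raise the adjusted p above its main value, so the call rests on which array is left out. With the floor at percentile 40, above the wild-type serum-free values of both genes, the interaction was 0.51 for Prim1 and 0.47 for Pola1, and the wild-type changes were -0.88 and -0.78.

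Prim2 fell on withdrawal in both lines, by 0.70 in Rb-/- cells (SE 0.11, adjusted p = 0.00246) and by 0.54 in wild-type cells (SE 0.10, adjusted p = 0.00469). Its interaction was -0.16, with a 95% interval from -0.48 to 0.16 (adjusted p = 0.695). Pold2 also fell in both, by 0.53 in Rb-/- cells (adjusted p = 0.003) and by 0.40 in wild-type cells (adjusted p = 0.00615). Whether Prim1 and Prim2 differ in their interaction was not tested. The wild-type Prim2 call was lost without the first wild-type serum-free array (adjusted p = 0.066) and the wild-type Pold2 call without the second (adjusted p = 0.0721).

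Pold1 fell by 0.52 in wild-type cells (SE 0.07, adjusted p = 0.00153), and in Rb-/- cells its change of -0.26 did not pass (SE 0.08, adjusted p = 0.0703). Without the first wild-type serum array the Rb-/- change was also -0.26 and passed (adjusted p = 0.0233). Its interaction was 0.26 (adjusted p = 0.431). Pola2 fell in Rb-/- cells on its _at probe set, by 0.42 (SE 0.09, adjusted p = 0.0104). In wild-type cells that probe set changed by -0.23 and did not pass (adjusted p = 0.0804), while without the first wild-type serum array it was -0.24 and passed (adjusted p = 0.0448). The Rb-/- call was lost without either Rb-/- serum array or the first Rb-/- serum-free array. The _r_at probe set of the same gene read -0.01 in Rb-/- and 0.10 in wild-type cells (adjusted p = 0.994 and 0.617). Pole2 was at least 1.38-fold lower in Rb-/- cells without serum, a bound set by the floor (adjusted p = 0.00246), and its wild-type change could not be read at this floor. With the floor at percentile 10 the changes were -0.92 in Rb-/- cells (adjusted p = 0.00327) and -1.003 in wild-type cells (adjusted p = 0.000896).

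On withdrawal, 4 of 8 member probe sets fell and 0 rose in Rb-/- cells, where 6.42% of all tested probe sets fell and 7.5% rose. Pole2 was among those 4, with its serum-free arrays set to the floor. The groups did not overlap for 7 of 8, against 56.0% of all. In wild-type cells 5 fell and 0 rose, where 9.25% of all fell and 6.61% rose, 15.9% in either direction. The groups did not overlap for 6 of 8, against 44.2% of all. The member medians were -0.40 in Rb-/- cells and -0.46 in wild-type cells, against 0.00 and 0.05 over all tested probe sets. At an unadjusted p under 0.05, 6 of 8 passed in each line, all of them lower, where 2346 of the 9686 probe sets passed in Rb-/- cells and 2707 in wild-type cells, in either direction. The interaction passed for 0 of 8 by limma, where 0.929% of all probe sets passed (0.454% higher and 0.475% lower), and 4 of 8 had an unadjusted p under 0.05, as did 1059 of all 9686. Those 4 were Prim1, Pola1, Pold1 and Pole2, and the Pole2 value of -0.41 (adjusted p = 0.118) was set by the floor, since it was 0.085 with the floor at percentile 10. Without the first wild-type serum array the Pole2 interaction was -0.46 and passed (adjusted p = 0.00841). Only the Rb-/- serum arrays then lay above the floor. That value is the serum difference of 0.46 with its sign turned, so it is not read as a difference between withdrawal responses.

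**Figure D3:**
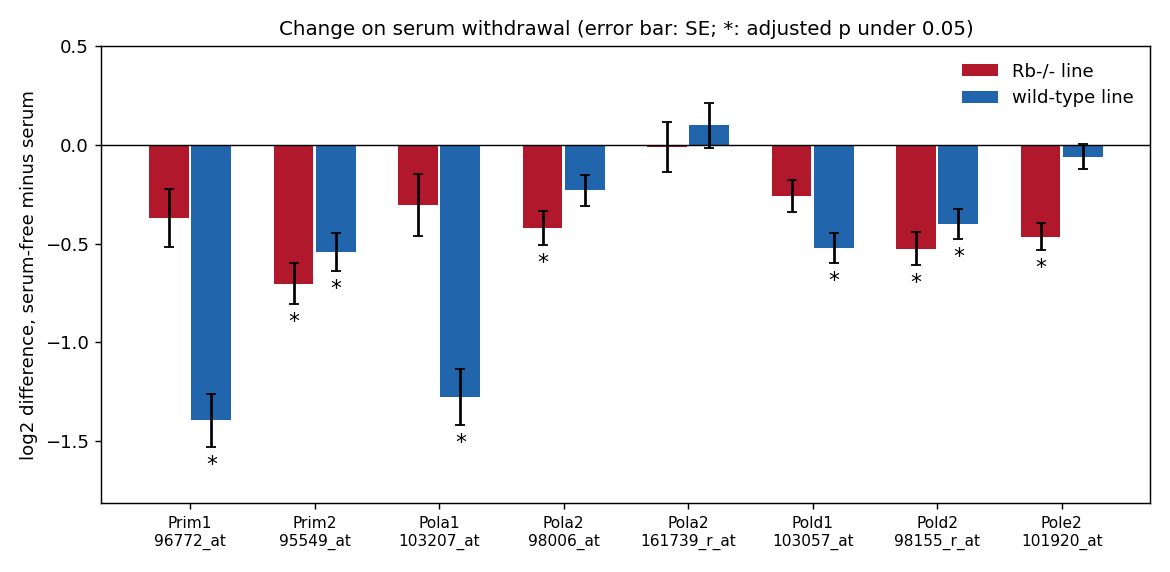
Log2 change on serum withdrawal for each tested member probe set in the Rb-/- line (red) and the wild-type line (blue), with SE as error bars and a star where the adjusted p was under 0.05. The bars lie at -0.37 and -1.40 for Prim1, at -0.31 and -1.28 for Pola1 and at -0.70 and -0.54 for Prim2. The interaction, the withdrawal change in Rb-/- cells minus that in wild-type cells, did not pass for any of these 3 genes.

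Other genes of DNA synthesis were read from lists, each gene by its brightest probe set. The list of remaining subunits and other DNA polymerases also held the polymerase-interacting proteins Poldip2 and Poldip3. Of its 21 genes, 13 were tested. Averaged over the media, 1 was higher in the Rb-/- line and 3 were lower, where 21.8% and 23.4% of all tested probe sets were called. Polg, the mitochondrial polymerase, stood at 0.21 (adjusted p = 0.0375). The lower genes were Polm, a polymerase of end joining, at -0.46 (adjusted p = 0.000214), the polymerase delta subunit Pold3 at -0.42 (adjusted p = 0.00253) and the polymerase epsilon subunit Pole3 at -0.22 (adjusted p = 0.0167). The list median was 0.05. On withdrawal 1 of these 13 genes passed in each line, Pold4, another delta subunit, which rose by 0.30 in Rb-/- cells (adjusted p = 0.0472) and by 0.65 in wild-type cells (adjusted p = 0.00058). Pold4 was named after its values were seen. Of all tested probe sets, 13.9% passed on withdrawal in Rb-/- cells and 15.9% in wild-type cells, in either direction.

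The partners of the polymerases at the fork were tested for 37 of 45 genes. Averaged over the media 21 were higher in the Rb-/- line and 4 lower, with a median of 0.34. Of all tested probe sets, 21.8% were called higher and 23.4% lower. Geminin (Gmnn), an inhibitor of origin licensing, stood at 1.27, the sliding clamp Pcna at 0.87, the single-strand binding protein Rpa1 at 0.68 and the helicase subunit Mcm3 at 0.63. The highest adjusted p among these 4 was 5.61e-05. On withdrawal 21 passed in Rb-/- cells and 24 in wild-type cells, all of them lower, where 6.42% and 9.25% of all tested probe sets fell. The interaction passed for 2 of the 37, Mcm3 at 0.83 (adjusted p = 0.017) and the helicase subunit Mcm7 at 0.86 (adjusted p = 0.0228). It passed for 0.929% of all tested probe sets. Among the 4 genes lower in the Rb-/- line, the helicase subunit Mcm5 stood at -0.24 (adjusted p = 0.0211) on an _r_at probe set. Mcm5 and Mcm7 were named after their values were seen.

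Cell cycle phase genes were tested for 18 of 20. Averaged over the media 1 was higher in the Rb-/- line, the kinase Cdk2 at 0.49 (adjusted p = 0.00057), and 5 were lower, among them cyclin D1 (Ccnd1) at -0.77 (adjusted p = 8.86e-07) and Rb1 itself. Of all tested probe sets, 21.8% were called higher and 23.4% lower. On withdrawal 11 fell in each line, where 6.42% of all fell in Rb-/- cells and 9.25% in wild-type cells. Cdc20, an activator of the ubiquitin ligase that ends mitosis, fell by 1.92 in Rb-/- cells (SE 0.11, adjusted p = 1.07e-05) and by 1.91 in wild-type cells (SE 0.10, adjusted p = 5.73e-06). Its interaction was -0.0040 (SE 0.15). The interaction passed for 2 of the 18, both lower: Ccnd1 at -0.43 (adjusted p = 0.0397) and Birc5, a chromosomal passenger protein of mitosis, at -0.62 (adjusted p = 0.047). Birc5 was named after its values were seen. Of all tested probe sets, 0.929% passed the interaction. The list genes were read in the fit over all arrays only. How their calls move when single arrays are left out is not given. The share of cells in S phase was not measured on these arrays, so fewer cells with a transcript and less transcript per cell cannot be told apart.

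**Figure D4:**
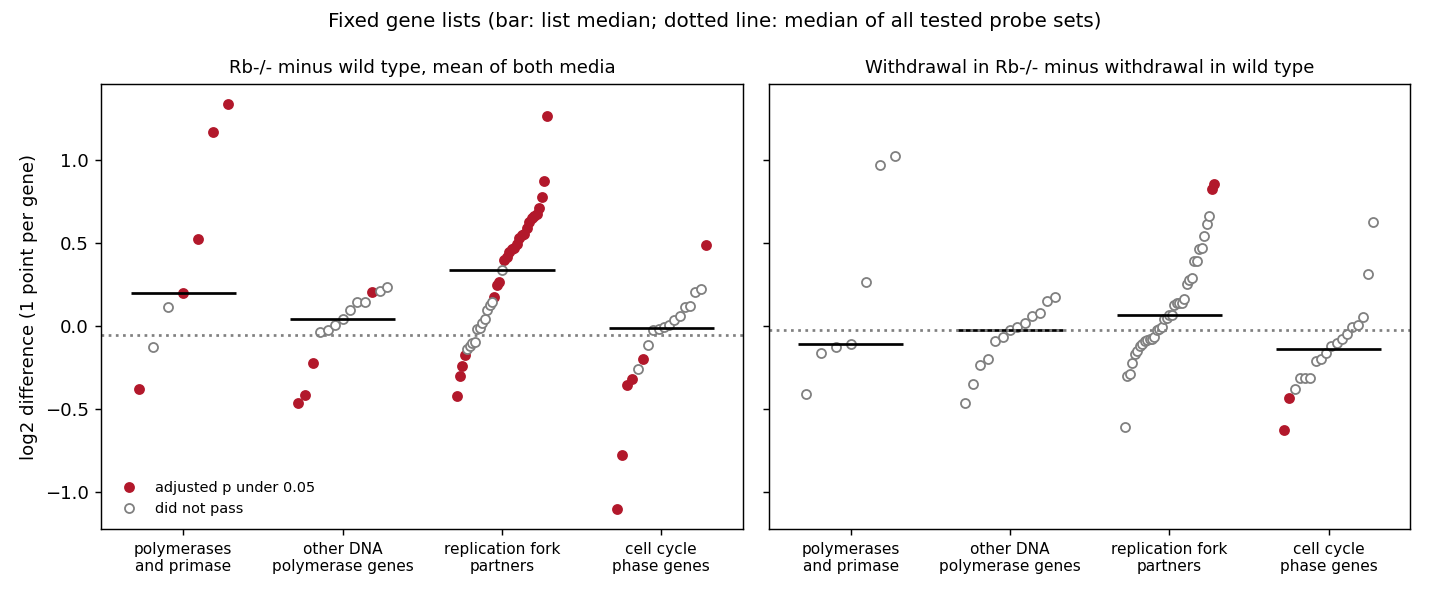
Log2 difference of the lines averaged over both media (left) and of the withdrawal responses (right), 1 point per gene, for the polymerases and primase, the other DNA polymerase genes, the fork partners and the cell cycle phase genes. Filled points passed at an adjusted p under 0.05, bars are list medians, and the dotted line is the median of all tested probe sets, -0.05 on the left and -0.02 on the right.

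The pattern of Prim1 over the 9 arrays was compared with every other tested probe set of a single gene by Pearson correlation of log2 values. The closest was the member Pola1, at r = 0.993. The 5 closest genes outside the members were Lrrc59 at 0.990, Timm8a1 at 0.987, Pcna at 0.985, Etf1 at 0.983 and Cstf2 at 0.982. Lrrc59 is a membrane protein of the endoplasmic reticulum, Timm8a1 a chaperone of mitochondrial import, Etf1 a translation release factor and Cstf2 a subunit of the cleavage stimulation factor of mRNA 3' ends. Among the members, Prim2 correlated with Prim1 at 0.877, Pold2 at 0.649, Pole2 at 0.610, Pola2 at 0.394 (_at) and -0.594 (_r_at), and Pold1 at -0.075. These values describe 9 arrays that share 4 group means, and many probe sets follow the same 2 factors.

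Of these 5 genes, Timm8a1 had the widest difference between the lines. It read 1118 and 1115 on the Rb-/- arrays without serum and 1513 and 1607 in serum, against 442 and 501 without serum and 959, 845 and 843 in serum for wild type. Its averaged difference was 1.04 (adjusted p = 6.54e-06) and its interaction 0.42 (adjusted p = 0.269). The interaction was smaller than that of Prim1 for all 5, between 0.21 for Etf1 and 0.54 for Pcna,, with a lowest adjusted p of 0.118.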

How the data were processed

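For each of the 9 arrays of total RNA, the authors deposited 1 linear intensity value per probe set. The sources used here do not state how probes were summarised or arrays scaled. Deposited medians ran from 445 to 474 and upper quartiles from 991 to 1153. Upper quartiles split by line, at 1119 to 1153 on Rb-/- arrays and 991 to 1088 on wild-type arrays. Quantile normalization removes this split, and its source was not tested. Values were quantile normalized with limma 3.58.1 in R 4.3.3, raised to a floor of 197 (percentile 25 of all values) and taken to log2, so that log2 differences were computed here from the deposited intensity values. Probe sets above the floor on 2 or more arrays were tested: 9686, for 7063 genes. Symbols came from the platform annotation, updated by gene identifier (GRCm38.p6 gene table). 1 fit of 4 group means over all arrays used an intensity trend in the variance with 5 residual degrees of freedom and 4.20 from the prior. All tests were two-sided, with Benjamini-Hochberg adjustment over all tested probe sets and a threshold of 0.05. The procedure was tested on simulated data.

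The members and lists were chosen with earlier results of these data known. All member probe sets are named, along with up to 4 genes per list by adjusted p and the 5 genes most like Prim1. Alternatives covered scaling, floor, filter, variance trend, replicate number and each array left out.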

Additional observations from a re-analysis of the deposited data

How the results depend on the processing

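Of 23 member calls, 17 kept direction and threshold under every alternative that tested them, and the 6 others are named in the report, with no member value past the threshold in the opposite direction. Leaving out single arrays gave 5 to 7 calls averaged over the media (main 5), 4 to 6 in serum (5), 2 to 4 without serum (4), 3 to 7 for withdrawal in Rb-/- cells (4), 4 to 6 for withdrawal in wild-type cells (5) and 0 to 3 for the interaction (0). The 3 interaction calls (Prim1, Pola1 and Pole2, the last set by the floor) and the 7 withdrawal calls in Rb-/- cells came without the first wild-type serum array. The 7 calls averaged over the media also came without it. Over the whole series, 6074 of 9654 probe sets then passed averaged over the media, against 4377 of 9686 with all arrays. The whole-series counts without it were 4376 in serum, 4981 without serum, 2280 and 1963 for withdrawal in Rb-/- and wild-type cells and 255 for the interaction. The 3 withdrawal calls in Rb-/- cells came without either Rb-/- serum array or the first Rb-/- serum-free array. The 2 came without the first wild-type or the first Rb-/- serum-free array. The cause was not tested.

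No value that passed changed sign. In the deposited values and with median scaling, the Pola2 _r_at probe set read 0.066 and 0.035 averaged, 0.081 and 0.056 in serum, and 0.051 and 0.015 without serum. The Pola2 _at probe set read 0.13 and 0.092 without serum. With median scaling, the _r_at probe set read 0.0073 for withdrawal in Rb-/- cells. Pole2 read 0.085 for the interaction with the floor at percentile 10. Over single arrays left out, the Pola2 _at probe set ran from -0.036 to 0.052 averaged and from -0.18 to 0.00079 without serum, and the _r_at probe set from -0.18 to 0.014 in serum, from -0.082 to 0.065 for withdrawal in Rb-/- cells and from -0.0062 to 0.20 in wild-type cells.

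The labels give replicate numbers but no pairing, and deviations of same-numbered arrays correlated between -0.23 and 0.33. With the replicate number as a block, the Pola2 _r_at probe set read 0.015 in serum, and the member counts were 5 averaged, 5 in serum, 3 without serum, 4 and 5 for withdrawal in Rb-/- and wild-type cells and 0 for the interaction. In the same order, 3689, 1595, 3069, 1255, 1536 and 51 of all 9686 probe sets passed with the block.

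Over all probe sets, the interaction count of 90 became 57 with the lower floor or without the variance trend, 51 with the block and 12 to 255 over single arrays left out. Over single arrays left out, the serum difference ran from 877 to 4376 (main 2287), the serum-free difference from 1159 to 4981 (2971), withdrawal in Rb-/- cells from 497 to 2280 (1348) and in wild-type cells from 667 to 1963 (1536). The highest count of each, the interaction included, came without the first wild-type serum array. The share of higher calls averaged over the media was 48.1%, against 69.3% in the deposited values and 60.7% with median scaling. It was 55.9%, 73.4% and 68.0% in serum, 54.8%, 77.6% and 68.1% without serum, and 41.7%, 25.7% and 36.2% for withdrawal in wild-type cells, in the same order of settings.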
